A study of Bos taurus with 35 samples.

Results

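The step from 24 h to 48 h post-mortem was described here by setting the 7 muscle samples taken 48 h after slaughter against the 7 samples taken 24 h after slaughter from the same carcasses. These 14 samples are part of a series of 35 samples, in which the longissimus thoracis muscle of 7 crossbred beef heifers was sampled at 0, 6, 24, 48 and 72 h post-mortem. By design the 2 groups differed in time of sampling. No treatment is named for the carcasses, which were kept under refrigeration after slaughter and gave 1 core per time point from the left side. Each time point is a separate core, so that time and the exact spot sampled cannot be told apart. Messenger RNA was sequenced from a whole piece of muscle, which also holds fat, vessel, connective tissue and immune cells.

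When circulation stops, muscle loses its oxygen supply and turns glycogen into lactate until the pH has dropped and rigor has set in. The tissue then ages in the cooler while proteases loosen the fibre structure. Messenger RNAs remain measurable for days in chilled muscle, and their relative levels depend on continued transcription, on unequal decay and on the cells that remain. In bulk tissue, fewer cells of a type and less RNA per cell cannot be told apart.

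The 14 libraries held between 20568418 and 92459664 counts. The total at 48 h was above that at 24 h in 1 of 7 animals (exact two-sided sign flip test over animals, p = 0.41). The 10 genes with the most counts took 22.6 ± 0.816% of the library at 24 h and 24.4 ± 0.553% at 48 h (mean ± SD, n = 7), and this share rose in 7 of 7 animals (exact sign flip test, p = 0.016, the smallest that 7 pairs can give). The tissue label fitted its markers, as the 10 muscle fibre genes with a known symbol summed to between 83610 and 110190 CPM (read counts scaled to the TMM-normalised library size) in every one of the 14 samples. On the first principal component of the 500 most variable genes, the 48 h sample lay further along than the 24 h sample in 7 of 7 animals, by 8.78 ± 5.23 units (range 2.24 to 17.8, exact sign flip test, p = 0.016).

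More genes fell than rose over this step. Of 14630 genes tested, 330 changed (2.26%), of which 275 were downregulated (1.88%) and 55 upregulated (0.376%), at a false discovery rate (FDR) below 0.05 and a fold change above 1.5, with the animal as a block in edgeR's quasi-likelihood test. Of the downregulated genes 221 were lower in 7 of 7 animals, and of the upregulated genes 30 were higher in 7 of 7. The changes were small. The genes called had a median change of 0.72 in size on the log2 scale, only 9 upregulated and 20 downregulated genes moved by more than 1, and edgeR's glmTreat test against a fold change of 1.5 itself called 0 genes (94 at an unadjusted p below 0.05, lowest FDR 0.63). At an FDR below 0.05 without the fold change limit, 1398 genes were higher (9.56%) and 1439 lower (9.84%), and the median log2 fold change of all genes was 0. Groups rarely separated: 1 upregulated gene had every 48 h sample above every 24 h sample and 6 downregulated genes had every one below, against 0.164% of all genes in each direction.

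**Figure D1:**
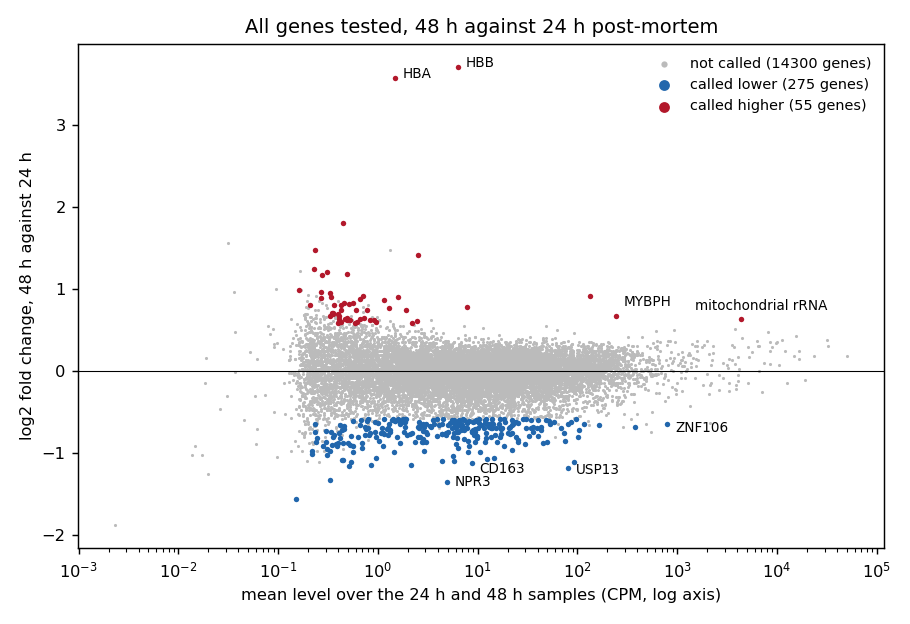
Log2 fold change from 24 h to 48 h (vertical axis) against the mean level over the 14 samples (CPM, log axis), 1 point per gene tested. The 275 downregulated genes (blue) spread over low and middle levels, while 42 of the 55 upregulated genes (red) lie below 1 CPM. HBB and HBA stand highest, at 3.71 and 3.58.

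Upregulated and downregulated genes differed in level. A mean below 1 CPM was found for 42 of the 55 upregulated genes but for 56 of the 275 downregulated genes. Of all 14630 genes tested, 2489 lay below 1 CPM, a share near that of the downregulated genes. Between 10 and 100 CPM, where 5811 genes were tested, 83 were downregulated and 0 upregulated. At 100 CPM or more, 6 of 1157 genes were downregulated and 3 upregulated. By biotype, known for 308 of the 330 genes called, 252 downregulated and 39 upregulated genes were protein coding, and long non-coding RNAs made up 13 and 1. Biotypes were known only for genes that changed against 0 h. No share over all genes tested can be set beside these counts, which show neither many nor few of a kind.

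The carcasses did not contribute equally. Animal 107 had 1000 genes more than 1.5-fold higher and 1942 more than 1.5-fold lower at 48 h, and animal 101 had 728 and 1419. The lowest counts were 290 higher and 621 lower in animal 202, and 365 and 611 in animal 104. The median change of the 275 downregulated genes ran from -0.26 in animal 104 to -1.28 in animal 107, on the log2 scale. Without animal 107, 20 genes were upregulated and 92 downregulated, and without animal 101, 26 and 103. The RNA integrity number that the study recorded moved with the step, being lower at 48 h than at 24 h in most of the carcasses. With this number as a covariate, 12 and 103 genes were called, of which 82 were among the 330. Every one of the 330 genes kept its direction in each of these 3 fits in which it was tested.

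**Figure D2:**
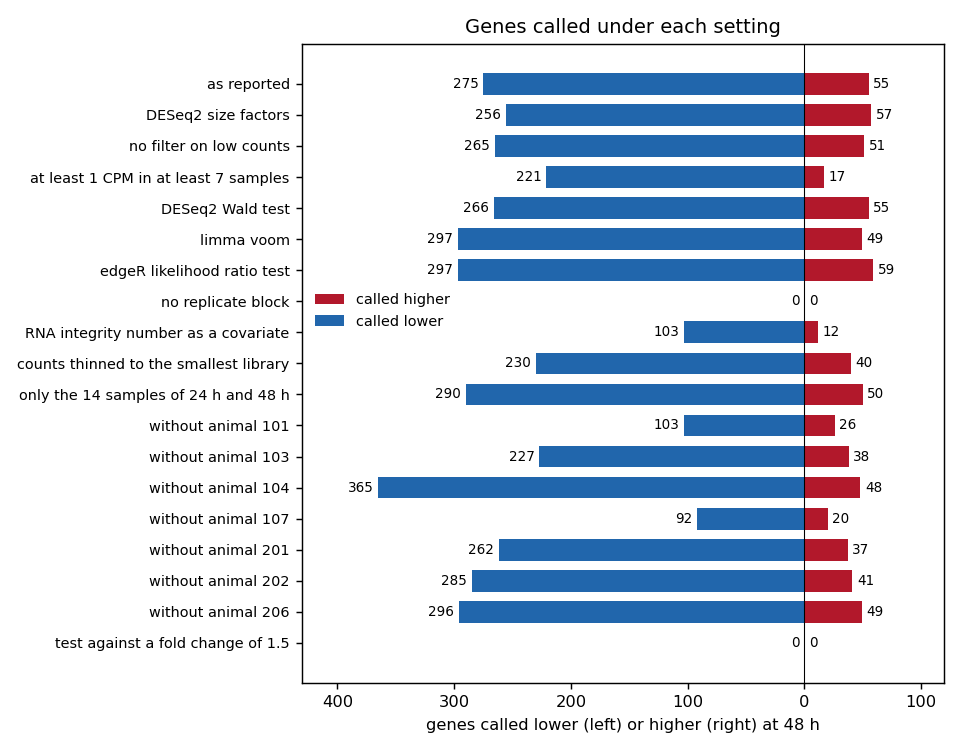
Number of genes called lower (blue, left) and higher (red, right) at 48 h in the fit as reported and under each alternative. The count fell most without the animal block and in the test against a fold change of 1.5 (0 in both directions), and to between 112 and 129 in all with the RNA integrity number as a covariate or without animal 101 or 107.

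The step before gave fewer calls and the step after more. From 6 h to 24 h, 1 gene was upregulated (0.00684%) and 79 downregulated (0.54%), and from 48 h to 72 h, 115 (0.786%) and 545 (3.73%). These steps share the 24 h or the 48 h samples with the step described here. When the difference between steps was tested gene by gene at an FDR below 0.05, 10 genes (0.0684%) differed between this step and the next one and 8 (0.0547%) between this step and the previous one, which was shorter. At an unadjusted p below 0.05 these numbers were 655 and 1545.

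The largest falls among genes that a rule selected (a known symbol, a level of 1 CPM or more on average, and 1 direction in all 7 carcasses) were spread over several functions. NPR3, the clearance receptor for natriuretic peptides, stood at 2.77, 5.16 and 14.2 CPM at 24 h (lowest, median and highest of 7) and at 1.15, 2.11 and 5.17 CPM at 48 h. It fell 2.54-fold (log2 fold change -1.35 ± 0.31 SE, FDR = 0.0051). Every carcass moved down, while the 2 groups overlapped.

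USP13, a deubiquitinase, went from 39.6, 108 and 160 CPM to 16.5, 45.2 and 93.1 CPM, a 2.27-fold fall (-1.18 ± 0.32, FDR = 0.012). C6H4orf54, an open reading frame gene, went from 29.6, 115 and 198 CPM to 13.3, 40.7 and 155 CPM (-1.11 ± 0.4, FDR = 0.048). In both genes animal 107 fell furthest and animal 104 least, and both calls were lost with the RNA integrity covariate (FDR = 0.098 and 0.27), without animal 101 and without animal 107, that of C6H4orf54 also without animals 103 or 201. AOC1, which oxidises histamine and other diamines, was steadier over carcasses, at 3.46, 6.41 and 8.74 CPM before and 1.18, 3.24 and 4.02 CPM after (-1.1 ± 0.21, FDR = 0.0025), and it kept its call without each animal in turn.

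TMEM245, a membrane protein gene, fell by 1.06 on the log2 scale, UHMK1, a serine/threonine kinase that acts on splicing factors, by 1.04, AGBL1, a carboxypeptidase that removes glutamates from tubulin, by 0.99, and CACUL1, a cullin-domain protein, by 0.99. Their median levels were 18.3, 7.27, 7.72 and 14.4 CPM at 24 h and 8.12, 2.82, 3.84 and 6.66 CPM at 48 h, with overlapping groups in all 4. CACUL1 was the one of these 4 whose call survived the omission of every animal in turn. TBX18, a T-box transcription factor, and ATF6, a sensor of unfolded proteins in the endoplasmic reticulum, had smaller falls (-0.68 ± 0.12, FDR = 0.0016 and -0.63 ± 0.12, FDR = 0.0025), lower in 7 of 7 carcasses each. TBX18 kept its call in every omission, whereas ATF6 fell by 1.06 and 1.07 in animals 101 and 107 but by 0.2 and 0.23 in animals 206 and 104, and its call was lost without animal 101, without animal 107 and with the covariate.

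Macrophage and complement genes were a group with many downregulated members. Of 13 list members with a known symbol, 9 were downregulated and 0 upregulated, 10 were lower by FDR alone, and the median log2 fold change was -0.77. Over all 3106 genes with a symbol, 7.21% were downregulated, 0.966% were upregulated and the median was -0.21. By FDR alone 31.3% of them were lower and 16.9% higher, the shares against which the counts of list members by FDR alone are to be read. Symbols were known only for genes that changed against 0 h at some time, a comparison that used these same samples, so list counts are not independent evidence of direction. Over the raw library total, the summed level of the 13 members was 88.7, 117 and 148 CPM at 24 h. At 48 h it was 46.3, 69.3 and 91.9 CPM, lower in 7 of 7 carcasses.

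CD163, the haemoglobin scavenger receptor of tissue macrophages, stood at 9.19, 7.25, 13.2, 21.6, 4.26, 10 and 16.1 CPM in animals 101, 103, 104, 107, 201, 202 and 206 at 24 h. At 48 h the same carcasses gave 3.67, 2.11, 8.18, 13.5, 2.19, 3.88 and 6.69 CPM, so that each had lost ground although the 48 h value of animal 107 exceeded 5 of the 24 h values. The fall was 2.18-fold (-1.12 ± 0.19, FDR = 0.0013). In the previous step CD163 had changed by -0.05 (FDR = 0.97) and in the next it fell by 0.7 (FDR = 0.012).

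The 3 chains of C1q, the recognition unit of the classical complement pathway, fell side by side. C1QA went from 11.9, 15.4 and 17.8 CPM to 3.15, 9.03 and 11.8 CPM (-0.87 ± 0.2, FDR = 0.0054), with every 48 h sample below every 24 h sample. C1QB (-0.79 ± 0.2, FDR = 0.0084) also separated, at 10.1 to 15.3 CPM before and 3.58 to 9.45 CPM after. C1QC (-0.91 ± 0.2, FDR = 0.0047) overlapped, at 7.36 to 12.8 CPM and 2.22 to 8.37 CPM. In C1QA animal 103 fell far more than the others, by 1.91 on the log2 scale.

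CSF1R, the receptor for the growth factor on which macrophages depend, fell from a median of 16.7 to 9.59 CPM (-0.82 ± 0.19, FDR = 0.0051). The complement receptor VSIG4 (-0.78), the scavenger receptor MSR1 (-0.77), the clotting factor subunit F13A1 (-0.7) and the Fc receptor FCGR3A (-0.59) completed the 9. The call of FCGR3A, at FDR = 0.049, was lost without any 1 of 6 animals.

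Further genes known from tissue macrophages were picked after their values were seen and add no independent count. The lectin CD209, which the rule also named, went from 1.88, 2.73 and 4.45 CPM to 0.787, 0.943 and 2.55 CPM (-1.14 ± 0.23, FDR = 0.0031). The folate receptor FOLR2 (-0.87, FDR = 0.0035), the sialic acid receptor SIGLEC1 (-1.16, FDR = 0.01), the phosphatidylserine receptor TIMD4 (-0.95, FDR = 0.005) and the inhibitory Fc receptor FCGR2B (-0.91, FDR = 0.013) were downregulated too, although the calls of SIGLEC1 and FCGR2B were lost without animal 101. So was CCL24, an eosinophil chemokine, at 0.903, 2.14 and 2.67 CPM before and 0.25, 1.03 and 1.5 CPM after (-0.99 ± 0.23, FDR = 0.005). It was the 1 chemokine of 9 with a symbol to be called.

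With the RNA integrity number as a covariate the macrophage list had 8 downregulated members, and the fitted fall of CD163 was 1.25 on the log2 scale (FDR = 0.0032). Without animal 101 the count was 5, without animal 107 it was 7, and without the other animals it ran from 7 to 9.

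Genes of energy sensing and insulin signalling formed the second group. AMPK is the kinase that senses a shortage of ATP, and insulin signalling runs from its receptor through PDPK1 to the FOXO factors. Of 16 list members with a symbol, 5 were downregulated and 0 upregulated, 9 were lower by FDR alone, and all 16 had a log2 fold change below 0 (median -0.38, range -1.07 to -0.21). PRKAA2, a catalytic subunit of AMPK, stood at 23.8, 14.2, 17.1, 17.8, 17.8, 21.9 and 5.41 CPM at 24 h in animals 101, 103, 104, 107, 201, 202 and 206, and at 8.05, 6.72, 12, 3.69, 8.7, 13.8 and 3.39 CPM at 48 h. The fall was 2.1-fold (-1.07 ± 0.23, FDR = 0.0038), largest in animal 107 and smallest in animal 104. Animal 206 was already low at 24 h.

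PRKAB2, a regulatory subunit of AMPK, went from 24.1, 55.6 and 78.2 CPM to 12, 28.6 and 54 CPM (-0.88 ± 0.27, FDR = 0.023). PDPK1 (-0.69, FDR = 0.0099), FOXO3 (-0.62, FDR = 0.013) and the insulin receptor INSR (-0.59, FDR = 0.0028) were lower in 7 of 7 carcasses, with overlapping groups. Here the RNA integrity number as a covariate left 1 of the 5 calls, that of PRKAA2 (FDR = 0.033), and without animal 101 or without animal 107 there was also 1. The part of RNA integrity in these falls was not tested beyond this fit.

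Several transcription regulators were downregulated as well. PPARA, a fatty acid sensing nuclear receptor, went from 13.5, 32.1 and 41.1 CPM to 9.33, 16.8 and 25.8 CPM (-0.81 ± 0.18, FDR = 0.0039), and TEAD1, which binds muscle promoters, from 16, 38.8 and 50.7 CPM to 9.03, 19.5 and 33.8 CPM (-0.89 ± 0.21, FDR = 0.0053). Both kept their calls with the RNA integrity covariate and without each animal in turn. SOX6, which represses slow fibre genes (-0.87), ESRRG, an oxidative metabolism receptor (-0.88), the leucine zipper factor MITF (-0.77) and the methyltransferase SMYD1 (-0.59) did not keep their calls with that covariate. These 6 genes were chosen after their values were seen and stand for no list. In the list of satellite cell and myogenesis genes 0 of 6 members were called (median -0.21), and MYOD1, the muscle determination factor, was higher by FDR alone (0.35 ± 0.09, FDR = 0.0097).

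From the remaining lists, the clock genes RORA (-0.7) and CLOCK (-0.65) were downregulated among 8 members. The chromatin genes KDM7A (-0.72) and TET1 (-0.65) were downregulated among 20, a count lying near the 7.21% of genes with a symbol. In the apoptosis list, which holds genes for and against cell death, the survival genes BCL2 (-0.83) and XIAP (-0.64) were downregulated among 4 members. Of the other members 1 was higher by FDR alone. RORA, CLOCK, XIAP and KDM7A lost their calls with the RNA integrity covariate (FDR = 0.078, 0.081, 0.063 and 0.081), without animal 101 and without animal 107. BCL2, at 1.89, 3.72 and 5.58 CPM before and 1.5, 1.94 and 2.91 CPM after (FDR = 0.0025), and TET1 kept theirs without each animal in turn. With the covariate BCL2 kept its call and TET1, at -0.49, did not. FBXO32, the muscle ubiquitin ligase atrogin, fell from a median of 135 to 96 CPM (-0.64, FDR = 0.0088). It was the 1 call among 7 members with a symbol in the muscle atrophy list, of which 5 were lower and 1 higher by FDR alone. The call of FBXO32 was lost with the covariate (-0.47, FDR = 0.081), without animal 101 and without animal 107. HSPA4L, a chaperone of the HSP110 family, fell by 0.88 (FDR = 0.0058), while 4 of the 10 chaperone genes were higher by FDR alone and the list median was 0.17. SNORA66, a small nucleolar RNA (-1.01, FDR = 0.043), was the 1 call among 29 of its kind, and this call was lost without any 1 of 6 animals and with the RNA integrity covariate (-0.58, FDR = 0.31).

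Solute carriers were downregulated in 8 of 48 members and upregulated in 1, with a median of -0.37. SLC16A9, a carnitine transporter (-0.9), SLC25A46, a mitochondrial outer membrane protein (-0.76), SLC16A10, an aromatic amino acid transporter (-0.75), and SLC7A2, a cationic amino acid transporter (-0.72), fell most, and the zinc transporter SLC39A2 rose by 0.65 from a median of only 0.359 CPM. With the RNA integrity covariate 0 of the 8 downregulated calls remained, and without animal 107 there were 2. Zinc finger genes named ZNF gave 4 downregulated of 72 and a median of -0.29, no larger a share than the 7.21% of all genes with a symbol. ZNF106, one of the 4, went from 519, 1018 and 1350 CPM to 380, 563 and 924 CPM (-0.64 ± 0.15, FDR = 0.0051), a call lost without animal 107 and with the RNA integrity covariate. By FDR alone 28 of the 72 were lower, against 31.3% of genes with a symbol, and the number was 1 with the covariate and 4 without animal 107.

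**Figure D3:**
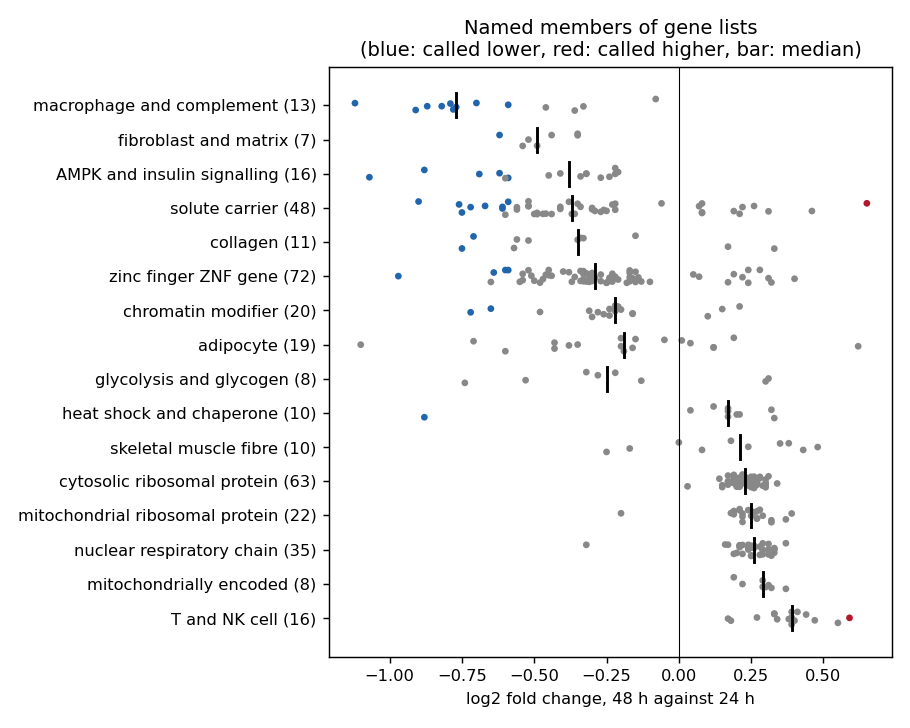
Log2 fold change from 24 h to 48 h of the named members of 16 gene lists (number of members in brackets), with the list median as a bar. The macrophage and complement list has the lowest median (-0.77) and the T and NK cell list the highest (0.39), while ribosomal protein and respiratory chain genes lie close together between 0 and 0.4 apart from 1 member each of the mitochondrial ribosome and respiratory chain lists.

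Matrix genes fell as well. LAMA2, the alpha chain of the laminin that anchors muscle fibres to their basement membrane, stood at 38.6, 44.3 and 55.6 CPM at 24 h and at 21.1, 29.6 and 31.7 CPM at 48 h, so that the groups did not overlap. It fell 1.6-fold (-0.68 ± 0.11, FDR = 0.0009). In the previous step its change had been 0.33 (FDR = 0.31), and the difference between the steps was -1.02 ± 0.18 (FDR = 0.041). SFRP1, a secreted inhibitor of Wnt signalling, likewise separated, at 6.65, 7.04 and 10.5 CPM against 3.5, 4.46 and 5.73 CPM (-0.82 ± 0.16, FDR = 0.0025), after a change of 0.61 in the previous step (difference -1.44 ± 0.26, FDR = 0.041). Neither difference between steps held with the RNA integrity covariate or without animal 104, 201 or 202, where 0 genes differed from the previous step. LAMA2 was named by the rule, SFRP1 after its values were seen.

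ITGAV, the integrin alpha subunit that binds vitronectin, fell from 13.3, 21.5 and 30.1 CPM to 8.48, 11.8 and 18.3 CPM (-0.77 ± 0.13, FDR = 0.0011). Of 7 fibroblast and matrix genes with a symbol 6 were lower by FDR alone and 1 was downregulated, the tenascin TNXB (-0.62 ± 0.14, FDR = 0.0051, median 104 to 72.1 CPM). Of 11 collagen genes 2 were downregulated, COL4A3 (-0.75) and COL4A4 (-0.71) of basement membrane collagen. Both calls were lost without animal 101, without animal 107 and with the RNA integrity covariate (FDR = 0.093 and 0.15). That of COL4A4 was also lost without animals 103, 201 or 202. ITGAV, LAMA2, SFRP1 and TNXB kept their calls with the RNA integrity covariate, and all but TNXB, whose call was lost without animals 104, 201 or 202, also kept them without each animal in turn.

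Fat cell genes gave 0 calls among 19 members, with a median of -0.19, and only CFD was lower by FDR alone (-0.43, FDR = 0.031). The summed level of this list, over the raw library total, was lower in 7 of 7 carcasses. It went from 446, 537 and 582 CPM to 327, 440 and 479 CPM. The gene tests use TMM scaling instead, with factors of 1 to 1.11 at 24 h and 0.941 to 1.01 at 48 h. A higher factor gives a lower scaled level, and the part of this scaling in the fall of the sum was not tested. PCK1, a gluconeogenic enzyme, and CIDEC, a lipid droplet protein, had already dropped between 6 h and 24 h, by 2.85 and 5.39 on the log2 scale. In the step described here they changed by 0.62 (FDR = 0.27) and -0.16 (FDR = 0.9), and the differences between steps were 3.46 ± 0.65 and 5.23 ± 1.03 (FDR = 0.043 each). Neither difference held with the RNA integrity covariate or without animal 104, 201 or 202.

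On the rising side only 5 genes met the rule. MYBPH, a myosin binding protein of the thick filament, was at 149, 365, 227, 69.2, 187, 168 and 139 CPM at 24 h in animals 101, 103, 104, 107, 201, 202 and 206 and at 278, 486, 357, 101, 331, 369 and 168 CPM at 48 h. It rose 1.59-fold (0.67 ± 0.2, FDR = 0.023) in 7 of 7 carcasses with wide overlap, and the call was lost without animals 101, 107, 201 or 202. INHA, the inhibin alpha subunit, went from 0.847, 1.17 and 3.08 CPM to 1.12, 2.46 and 4.03 CPM (0.74 ± 0.18, FDR = 0.007). GLB1L2, a relative of beta-galactosidase (0.9 ± 0.22, FDR = 0.0079), and CRABP2, a retinoic acid binding protein (0.61 ± 0.18, FDR = 0.02), were below 5 CPM in all 14 samples. Both lost their calls without animal 101, CRABP2 also without animal 107 and with the covariate (FDR = 0.12).

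LCK, the kinase that starts T cell receptor signalling, was the fifth and the 1 upregulated gene without overlap, at 1.34, 1.84 and 2.15 CPM before and 2.19, 2.47 and 3.49 CPM after (0.59 ± 0.15, FDR = 0.0098). Its call was lost with the RNA integrity covariate (0.45, FDR = 0.1) and without animals 103, 107 or 206. Of 16 T and NK cell genes with a symbol LCK was the only one called, but all 16 had a log2 fold change above 0 (0.17 to 0.59, median 0.39) and 4 were higher by FDR alone, against 16.9% of genes with a symbol. Over the raw library total, their sum was 18.4, 20.6 and 26.9 CPM at 24 h. At 48 h it was 23.1, 27.2 and 29.8 CPM, higher in 7 of 7 carcasses. The count by FDR alone was 0 with the RNA integrity covariate and 1 without animals 101, 107, 201 or 202. A further 3 lymphocyte genes, chosen after their values were seen, were upregulated below 1 CPM, namely PTPN22 (0.97, FDR = 0.0079), CRTAM (0.82, FDR = 0.021) and LAG3 (0.81, FDR = 0.036). All 3 calls were lost with the RNA integrity covariate (FDR = 0.068, 0.13 and 0.22), that of CRTAM also without animals 107 or 202 and that of LAG3 without any 1 of 6 animals.

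B cell and neutrophil genes were few. CD79A, a chain of the B cell receptor complex, lay between 0.044 and 0.804 CPM and rose by 0.95 (FDR = 0.035) with 5 of 7 carcasses higher, a call lost without any 1 of 5 animals and with the RNA integrity covariate (FDR = 0.21). CR2, a complement receptor, fell by 0.77 (FDR = 0.012), a call lost without animal 101. S100A9, a calcium binding protein of neutrophils, stood at 0.103 to 1.1 CPM before and 0.0742 to 1.91 CPM after (1.18 ± 0.41, FDR = 0.044), higher in 5 of 7 carcasses. Most of its rise was in animal 101, at 0.146 and 1.91 CPM, and without that carcass the change was 0.36.

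The largest fold changes belonged to the globins. HBB stood at 0.146, 0.361, 0.0764, 0.28, 0.169, 5.78 and 1.49 CPM at 24 h in animals 101, 103, 104, 107, 201, 202 and 206, and at 58, 6.61, 4.19, 3.24, 0.0503, 5.82 and 1.8 CPM at 48 h. Animals 101, 103, 104 and 107 rose steeply, animals 202 and 206 were nearly level and animal 201 was lower, and animal 101 had 4942 counts at 48 h, more than any other carcass. The fitted change was 3.71 ± 0.77 (FDR = 0.0033), and 2.39 without animal 101, still called. HBA moved with it, at 0 to 0.984 CPM before and 0.0754 to 14.1 CPM after (3.58 ± 0.73, FDR = 0.0029). Both lost their calls with the RNA integrity covariate (FDR = 0.053 and 0.074). In the next step they fell by 3.51 and 3.79, and the differences between steps were 7.22 ± 1.28 (FDR = 0.0096) and 7.38 ± 1.23 (FDR = 0.0045). Some globin genes have near-identical copies of the same chain, and reads can be split between such copies.

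**Figure D4:**
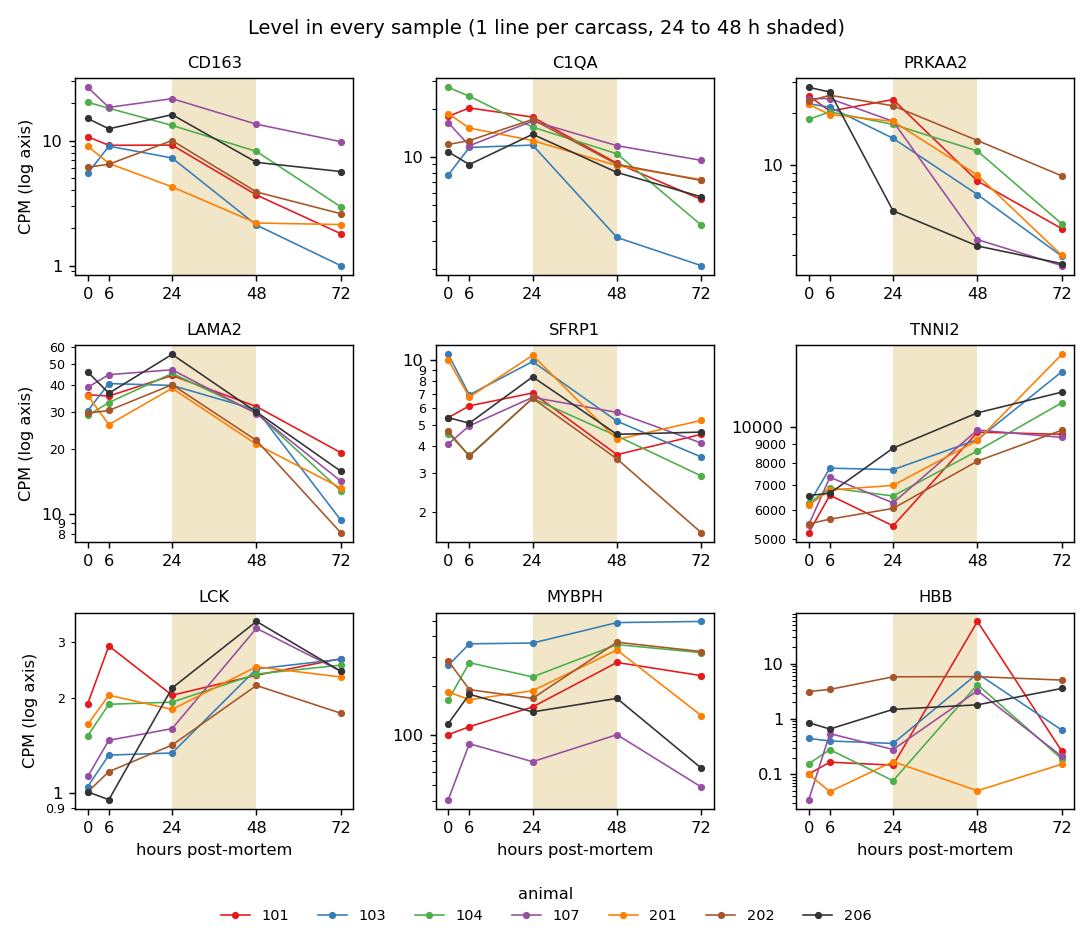
Level (CPM, log axis) of 9 genes at 0, 6, 24, 48 and 72 h, with 1 line per carcass and the step from 24 h to 48 h shaded. CD163, C1QA, PRKAA2, LAMA2 and SFRP1 fall in every carcass within the shaded step, TNNI2, LCK and MYBPH rise, and HBB peaks at 58 CPM in animal 101.

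Among abundant transcripts the mitochondrial ribosomal RNA ENSBTAG00000043570 rose from 1821, 3272 and 5216 CPM to 2804, 5650 and 9446 CPM (0.63 ± 0.12, FDR = 0.0026), higher in 7 of 7 carcasses. Its change was below the fold change limit with the RNA integrity covariate (0.52) and without animal 206. The other one, ENSBTAG00000043567, was higher by FDR alone (0.5 ± 0.13, FDR = 0.011). The 8 mitochondrially encoded messenger RNAs had a median of 0.29 with 0 calls. ENSBTAG00000053626, a protein coding gene without a symbol, went from 70.8, 81.3 and 150 CPM to 91.1, 170 and 269 CPM (0.91 ± 0.19, FDR = 0.0032), and it kept its call without each animal and with the RNA integrity covariate. These genes were taken up after their values were seen.

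The named members of several large families moved upwards together by less than the fold change limit. Genes had a name only if they had changed against 0 h at some time, a comparison that used these same samples. Members that did not change against 0 h are thus left out, and the counts cannot show that whole families rose. Among all genes with a symbol 16.9% were higher by FDR alone. Of 63 cytosolic ribosomal protein genes 0 were called and 61 were higher by FDR alone, with a median of 0.23 and 59 of them higher in 7 of 7 carcasses. Nuclear genes of the respiratory chain showed the same, with 32 of 35 higher by FDR alone and a median of 0.26, as did 21 of 22 mitochondrial ribosomal protein genes (median 0.25). RPL13A, for example, rose from 405, 498 and 552 CPM to 545, 566 and 662 CPM (0.28 ± 0.05, FDR = 0.0026). These counts by FDR alone fell to 6, 6 and 3 with the RNA integrity covariate and to 11, 9 and 6 without animal 107.

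Fast fibre troponins rose by a little more. TNNI2 went from 5420, 6529 and 8795 CPM to 8112, 9272 and 10954 CPM (0.48 ± 0.08, FDR = 0.0013), and TNNC2 from a median of 10192 to 12613 CPM (0.38 ± 0.08, FDR = 0.0027). Of 10 muscle fibre genes with a symbol 5 were higher by FDR alone and 0 lower, and 3 remained higher with the covariate. The glycolytic enzymes PGAM2 (0.31, FDR = 0.004) and ENO3 (0.3, FDR = 0.0069) rose too, in a list of 8 whose median was -0.25. PGAM2 did not overlap, at 1080 to 1597 CPM before and 1605 to 1840 CPM after.

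From the called genes, 6 transcripts of dividing cells that rose at low levels were chosen after their values were seen. They stand for no list, so no share can be set beside them. CEP55, which acts in the last cut of cell division, went from 0.137, 0.182 and 0.308 CPM to 0.226, 0.388 and 0.434 CPM (0.89 ± 0.2, FDR = 0.0042) and kept its call without each animal. The centromere genes CENPA (0.69) and HJURP (0.64), the mitotic genes AURKB (0.62) and TROAP (0.65) and the recombination gene RAD51AP1 (0.59) each lost their calls when 5 or more of the animals were left out in turn. These 5 calls were also lost with the RNA integrity covariate (FDR from 0.073 to 0.2), whereas CEP55 kept its call (FDR = 0.019).

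Genes of body position, chosen after their values were seen, differed between this step and the next. HOXC10, a homeobox factor of the posterior trunk, was level between 24 h and 48 h (median 61.8 and 68.2 CPM, 0.03 ± 0.09, FDR = 0.86) and fell by 1.74 between 48 h and 72 h, a difference of 1.76 ± 0.16 (FDR = 2.6e-08). HOXA10, HOXA9 and HOXB4 likewise changed by -0.06, 0.14 and 0.09 here and by -1.89, -0.99 and -0.92 afterwards. SIM2, a helix-loop-helix factor, changed by -0.25 ± 0.1 (FDR = 0.072) and then fell by 2.81. Its relative SIM1 was already downregulated in the step described here, at 0.484, 1.27 and 2.02 CPM before and 0.249, 0.593 and 0.74 CPM after (-1.14 ± 0.21, FDR = 0.0025), and at 72 h its median was 0 CPM. HOXD10 rose by 1.71 between 6 h and 24 h and was downregulated here (-0.87 ± 0.29, FDR = 0.035, difference -2.58 ± 0.51, FDR = 0.043), at levels below 1 CPM. Its call in this step was lost without any 1 of 6 animals and with the RNA integrity covariate (FDR = 0.076). The difference of HOXD10 from the previous step was lost with that covariate and without animal 104, 201 or 202.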

How the data were processed

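The 35 libraries were made from stranded mRNA preparations, trimmed with Trimmomatic 0.39, aligned to the bovine assembly ARS-UCD1.2 with STAR 2.7.0f and counted per gene with featureCounts 1.6.4, as the submitters' processing notes and the study's methods state. The authors deposited whole-number read counts, which were used as they stand, for 27607 genes, of which 22206 had a read. The methods speak of sense strand counts. The deposited counts are labelled reverse strand. For featureCounts the methods name a strand specific mode but print the option for unstranded counting. The strand setting could not be checked from the counts themselves, so overlapping antisense genes remain uncertain.

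Genes were kept by edgeR's filterByExpr with time point as group (minimum count 10), which left 14630, were scaled by TMM and fitted with edgeR 4.0.16 (R 4.3.3, glmQLFit and glmQLFTest) on all 35 samples with animal and time point as terms. The contrast was 48 h minus 24 h. The p-values were adjusted by Benjamini-Hochberg over all genes tested (FDR), genes past 0.05 and a fold change of 1.5 were called up- or downregulated, and SE is the log2 fold change divided by the root of F. Levels of single genes are TMM-normalised CPM, and summed levels of lists are CPM over the raw library total. Replicates are carcasses (n = 7). Within-animal values were tested by exact sign flips over 128 patterns.

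The labels give each sample its animal, which pairs the samples. Deviations of the 24 h and 48 h samples from their group means correlated with a median r of 0.65 (0.5 to 0.77) in the same animal and of -0.11 between animals.

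Symbols and biotypes came from the study's list of genes changed against 0 h at some time (3106 tested genes with a symbol), of which the copy used here is shortened, so list counts cover those genes only. The genes named by rule are, in each direction, the 12 with the largest change and the 5 with the smallest FDR among the called, named genes that averaged 1 CPM or more and moved 1 way in all 7 animals, and called members of lists (at most 4 a direction with values, or the 2 with the smallest FDR where none was called). Others are marked as chosen after their values were seen. The lists and members were chosen with earlier results of these data known, and no list was tested. RNA integrity numbers were taken from the study and served only as a covariate. Alternatives were DESeq2 1.42.0, limma 3.58.1 voom, other filters and scalings, thinned counts and the omission of each animal. A description by gene length was planned and not run, since the reference table used here could not be joined to the gene identifiers. No sequence is shown for the same reason. The tests were tried on simulated data first. A gene that differed between steps is not reported here.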

Additional observations from a re-analysis of the deposited data

Results flagged for a closer look

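Within-animal changes of the genes called and described here, total counts and the first principal component were searched for a carcass that stood apart from the other 6, in 97 groups of 7 values. A gap above 0.568 of the whole range was found in 6 of them, where chance alone gives about 1 in 20. Animal 103 fell furthest for AOC1 (-1.52 on the log2 scale, others -1.17 to -0.95) and for C1QA (-1.91, others -0.95 to -0.51). Animal 101 rose most for S100A9 (3.38, others -0.52 to 1.01). Animal 201 was the one carcass with a higher SIGLEC1 (0.31, others -1.71 to -0.87), and animal 104 the one with a higher SNORA66 (0.61, others -1.89 to -0.82). Animal 107 fell most for SIM1 (-2.3, others -1.2 to -0.76).

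The direct test of this step against the next differed for 10 genes, of which 9 are given. The difference, this step minus the next on the log2 scale, was 7.38 for HBA, 7.22 for HBB, 2.56 for SIM2, 1.85 for ENSBTAG00000048562, 1.83 for HOXA10, 1.76 for HOXC10, 1.12 for HOXA9 and 1.01 for HOXB4. For SIM1 it was 6.57, a fitted value that depends on the prior count because the gene's median at 72 h was 0 CPM.

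Against the previous step 8 genes differed. The difference, this step minus the previous one, was 5.23 for CIDEC, 3.46 for PCK1, 0.79 for ENSBTAG00000020054 and 0.43 for LGALS1, a galectin that had changed by -0.09 before and rose by 0.35 here. It was -2.58 for HOXD10, -1.44 for SFRP1, -1.02 for LAMA2 and -0.52 for ENSBTAG00000011966. With the DESeq2 Wald test and with the likelihood ratio test all 18 step differences held, these 8 among them. With voom 14 of the 18 held. Without animal 104, 201 or 202, and with the RNA integrity covariate, 0 genes differed from the previous step. These 8 therefore depend on single carcasses and on that covariate.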

How the results depend on the processing

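All 330 genes called kept their direction in every alternative in which they were tested. Without the replicate block 0 genes were up- and 0 downregulated (lowest FDR 0.089, 2527 genes at an unadjusted p below 0.05), and the tests against the next and the previous step gave 4 and 0 genes. With the RNA integrity number as a covariate 12 and 103 genes were called and 0 differed from the previous step. A minimum of 1 CPM in 7 samples left 17 upregulated genes and 2 that differed from the previous step. FDR alone gave 1398 and 1439, and the test against a fold change of 1.5 gave 0 and 0. With no filter 18 and 4 genes differed from the next and previous step, with the likelihood ratio test 17 and 61, with DESeq2 66 and with voom 24 from the previous step, and with thinned counts 2. Leaving out 1 animal gave 20 to 49 upregulated and 92 to 365 downregulated genes, the lowest without animal 107 and, next, without animal 101 (26 and 103), 4 to 10 genes that differed from the next step and 0 to 15 from the previous one. Other scalings, DESeq2, voom, the likelihood ratio test and the 14 samples alone kept the counts of up- and downregulated genes within 1.5 times. The first principal component rose by 5.41 (6 of 7 carcasses, exact sign flip test, p = 0.031) when only the 14 samples were used and by 19.1 with all genes. Changes near 0 turned for CIDEC (0.1 with voom, -0.39 to 0.02 with 1 animal left out), HOXB4 (-0.03 to 0.16) and HOXC10 (0 to 0.06). The cause of these differences was not tested. Genes below 1 CPM rest on few counts, which limits the upregulated side most.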
